A study of Mus musculus with 2 samples.

Results

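Far sites are stretches of open chromatin in the mouse adrenal gland that lie in the wide gaps between protein-coding genes. They were selected on measured peaks: a site needed an overlap of at least 1 bp between the peak lists of both replicates, a midpoint outside every annotated gene body and a distance of more than 100 kb to every protein-coding start. This left 2734 far sites among 48299 shared peaks, or 5.66% (exact binomial 95% interval 5.46 to 5.87%, counting error only). The assay was DNase-seq, in which DNase I cuts accessible DNA in nuclei and the cut ends are sequenced. The labels give 1 group of 2 biological replicates: adrenal gland of B6CASTF1/J females, the first-generation cross of C57BL/6J with CAST/EiJ, aged 10 days, with 3 females named per sample. No treatment, mutation or second age was included, so no comparison between conditions was possible, and 2 samples cannot give a two-sided exact permutation p below 0.5. All values are therefore descriptions of these libraries, and sites are not replicates.

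Distal open chromatin commonly marks enhancers, which raise the activity of genes from a distance, and insulators, where the zinc finger protein CTCF binds and shapes chromatin loops. Wide gene-poor gaps, often called gene deserts, tend to lie beside genes of development whose enhancers act over long distances. Within open chromatin, a bound protein can shield its DNA from DNase I and leave a short protected stretch, called a footprint. In the adrenal gland the outer cortex makes steroid hormones and the inner medulla makes catecholamines, with vessels throughout and a capsule of connective tissue around them.

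Sequences of 6 far sites are printed because each held a searched motif inside a footprint of both replicates, and because each ranked among the highest, the farthest or those just past the distance limit. Each is the 150 bp around the site's midpoint on the plus strand of mm10, read from the RefSeq GRCm38 assembly of C57BL/6J. Capitals mark only the matches that lie inside footprints of both replicates, and other matches are left in lower case: CTCF in the sequences on chromosomes 8, 14, 2 and 13, AP-1 in that on chromosome 10, and TEAD in that on chromosome 1 and, beside CTCF, in that on chromosome 2.
chr8:20122158-20122307, between Gm31371 and Gm15319: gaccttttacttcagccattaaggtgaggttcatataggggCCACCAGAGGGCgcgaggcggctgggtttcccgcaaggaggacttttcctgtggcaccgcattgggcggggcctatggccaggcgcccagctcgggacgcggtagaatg
chr10:126511646-126511795, between Lrig3 and Atp23: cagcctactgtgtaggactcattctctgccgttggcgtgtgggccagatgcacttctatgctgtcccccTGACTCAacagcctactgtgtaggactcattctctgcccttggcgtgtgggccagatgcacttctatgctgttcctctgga
chr1:122357146-122357295, between Ddx18 and Dpp10: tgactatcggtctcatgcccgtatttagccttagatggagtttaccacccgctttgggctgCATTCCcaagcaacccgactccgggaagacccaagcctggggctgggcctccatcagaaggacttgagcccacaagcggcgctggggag
chr14:90433276-90433425, between Pcdh20 and Pcdh9: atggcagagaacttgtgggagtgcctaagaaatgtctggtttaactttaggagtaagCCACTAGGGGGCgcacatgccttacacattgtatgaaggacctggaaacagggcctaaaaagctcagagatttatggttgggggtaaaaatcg
chr2:146612286-146612435, between Ralgapa2 and Kiz: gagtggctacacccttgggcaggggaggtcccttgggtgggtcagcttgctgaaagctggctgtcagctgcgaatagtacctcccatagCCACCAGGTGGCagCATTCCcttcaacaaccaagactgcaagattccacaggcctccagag
chr13:73160376-73160525, between Irx2 and Irx4: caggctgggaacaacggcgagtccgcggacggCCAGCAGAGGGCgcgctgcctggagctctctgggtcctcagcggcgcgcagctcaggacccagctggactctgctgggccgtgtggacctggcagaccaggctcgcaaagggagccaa

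The site between Lrig3 and Atp23 repeated itself: shifted by 77 bases, 68 of 73 compared bases were equal. At the other printed sites the best shift gave 38.9 to 44.9% equal bases. The single AP-1 match of that site lay between the repeated blocks.

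Shorter stretches around CTCF matches are shown because 89.1% of CTCF matches at far sites lay inside footprints of both replicates. These 8 stretches, chosen after their values were seen, belong to the highest far sites with a CTCF match inside a footprint of both replicates. Each is 44 bases long, on the strand of the match, with the match in capitals and 16 bases on each side.
chr8:20122183-20122226, plus strand: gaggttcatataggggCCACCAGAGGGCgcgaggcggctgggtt
chr12:77781557-77781600, minus strand: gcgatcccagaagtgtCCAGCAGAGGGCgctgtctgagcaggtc
chr4:9135952-9135995, plus strand: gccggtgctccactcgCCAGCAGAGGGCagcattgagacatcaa
chr16:50736946-50736989, minus strand: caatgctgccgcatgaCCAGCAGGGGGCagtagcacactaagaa
chrX:94865717-94865760, plus strand: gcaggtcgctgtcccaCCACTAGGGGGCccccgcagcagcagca
chr2:172831256-172831299, plus strand: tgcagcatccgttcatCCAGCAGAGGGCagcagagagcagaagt
chr10:66853360-66853403, plus strand: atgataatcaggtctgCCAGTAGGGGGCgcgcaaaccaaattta
chr4:87368237-87368280, plus strand: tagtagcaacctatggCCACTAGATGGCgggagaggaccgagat

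Each of these 8 matches lay in a stretch common to a footprint of each replicate, and these common stretches were 26 to 45 bp long. At the first, between Gm31371 and Gm15319, the peak height was 18.7 in replicate 1 and 9.92 in replicate 2. At the second, between Fut8 and Gm6657, it was 4.80 and 3.97, and at the sixth, between Tfap2c and Bmp7, 3.44 and 3.20. Tfap2c encodes a transcription factor of early development and Bmp7 a secreted growth factor. All 8 sites were higher in replicate 1, as most sites were: only 7.68% of far sites and 6.98% of all shared peaks were lower in replicate 1.

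The labelled tissue was checked against promoters of marker genes. All 5 cortex markers (Star, Cyp11a1, Nr5a1, Scarb1 and Fdx1) had a shared peak within 1 kb of a start, as did 3 of 5 medulla markers, 1 of 3 endothelial markers, both brown fat markers and 0 of 2 kidney markers. Replicate 1 had 98813 peaks and 339116 footprints, and replicate 2 had 55135 and 241536. Read totals were not used here.

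Far sites were sparse, and their number depended on the peak list: the longer list of each replicate gave 5708 and lists of equal length gave 1639. The 2734 sites lay in 747 Mb of eligible sequence, 28.2% of the sequenced bases of the genome, at 3.66 sites per Mb. Shared peaks between genes but 1 to 100 kb from a coding start, called nearer intergenic peaks here, numbered 10487 and stood at 15.8 per Mb. Shared peaks inside gene bodies and over 100 kb from a coding start stood at 6.72 per Mb. Peaks within 1 kb of a coding start stood at 195 per Mb. Chromosome 13 had the most far sites per eligible Mb, 6.22, followed by chromosome 9 with 5.68. The X chromosome had 62 far sites, 1.12 per eligible Mb. In these female samples the Y chromosome had 4 in 56.3 eligible Mb, with median heights of 0.334 in replicate 1 and 0.239 in replicate 2. That Y sequence is part of the 747 Mb and lowers the 3.66 sites per Mb.

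The median far site lay 196 kb from the nearest protein-coding start, with quartiles at 137.6 and 320.9 kb. There were 278 far sites beyond 500 kb and 54 beyond 1000 kb, and the farthest lay at 2206 kb. The gaps were not empty of annotation: the median distance to the start of any annotated gene, noncoding ones included, was 35.8 kb. Within 1 kb of a noncoding start lay 146 far sites, or 5.34%, of which 81 were at starts of long intergenic RNAs and 22 at processed pseudogenes. This share was near the 5.07% of nearer intergenic peaks (4.66 to 5.51%). It was below the 11.97% of shared peaks inside gene bodies and over 100 kb from a coding start. These 146 had median heights of 1.21 in replicate 1 and 0.719 in replicate 2, against 1.08 and 0.614 at the far sites beyond 1 kb.

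The label of distance also depended on the annotation. By RefSeq on the same build, 98 far sites (3.58%) lay within 100 kb of a protein-coding start and 19 within 1 kb. One of these was the fifth highest far site, at chr13:107890021-107891080. It lay 0.487 kb from the start of Zswim6, which GENCODE M21 lists there as a processed transcript and RefSeq as protein-coding, so it is far only by the annotation of the rule.

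Far sites were lower than the peaks nearer to genes. The peak height is a signal deposited by the authors once per peak, on a scale that the sources used here do not state, and its median at far sites was 1.08 in replicate 1 (quartiles 0.715 and 1.65) and 0.620 in replicate 2 (0.459 and 0.905). At nearer intergenic peaks the medians were 1.64 and 0.967. Far sites thus had 0.650 ± 0.0128 times the median height of nearer intergenic peaks (SD, n = 2), 0.659 in replicate 1 and 0.641 in replicate 2. They were closer to the peaks over 100 kb from a coding start inside gene bodies, with ratios of 0.912 and 0.917, than to promoter peaks, with 0.299 and 0.288. The ranges overlapped widely, from 0.127 to 21.9 at far sites and from 0.154 to 38.9 at nearer intergenic peaks in replicate 1. In bulk tissue, a site open in fewer cells cannot be told apart from a site less open in each cell.

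**Figure D1:**
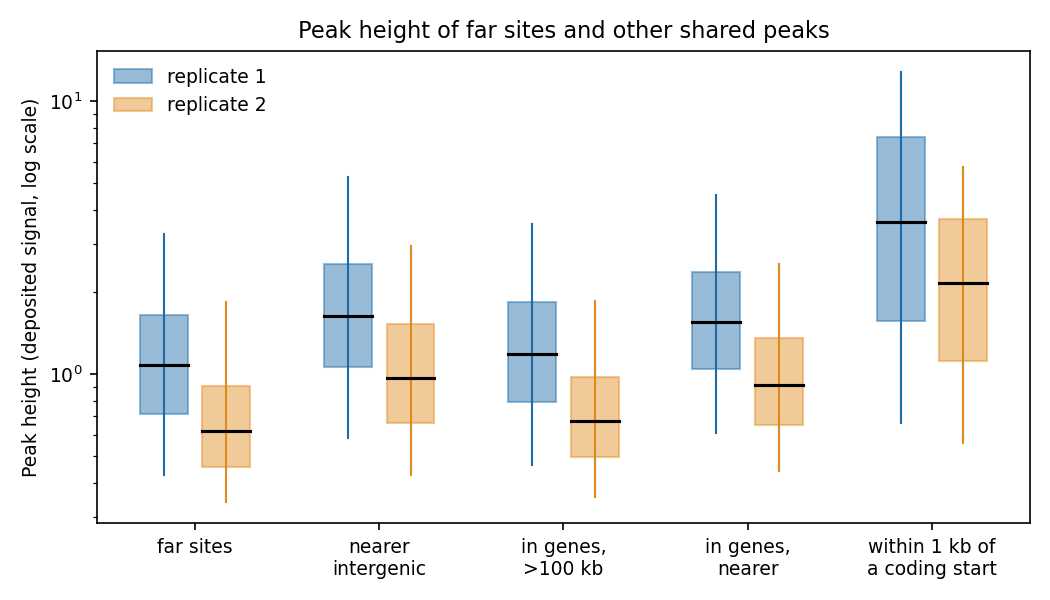
Peak height (deposited signal, log scale) of far sites and 4 other classes of shared peaks in each replicate; lines in the boxes are medians, boxes quartiles and whiskers the 5th and 95th percentiles. The median far site stood at 1.08 in replicate 1 and 0.620 in replicate 2, below the medians of the other 4 classes.

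Height was also lower at larger distances among the far sites themselves. The 878 sites at 100 to 150 kb had median heights of 1.20 in replicate 1 and 0.682 in replicate 2. At 300 to 500 kb the medians were 0.922 and 0.539 (490 sites), and at 500 to 1000 kb they were 0.789 and 0.471 (224 sites). The 54 sites beyond 1000 kb had 0.839 and 0.452, so replicate 1 was no lower there than at 500 to 1000 kb. GC content was lower along the same bins, with a median of 52.7% at 100 to 150 kb and 48.3% beyond 1000 kb, and its part in the difference of height was not tested. Across the 2734 far sites, which share their libraries, the Spearman correlation of distance with height was -0.19 in replicate 1 and -0.24 in replicate 2.

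**Figure D2:**
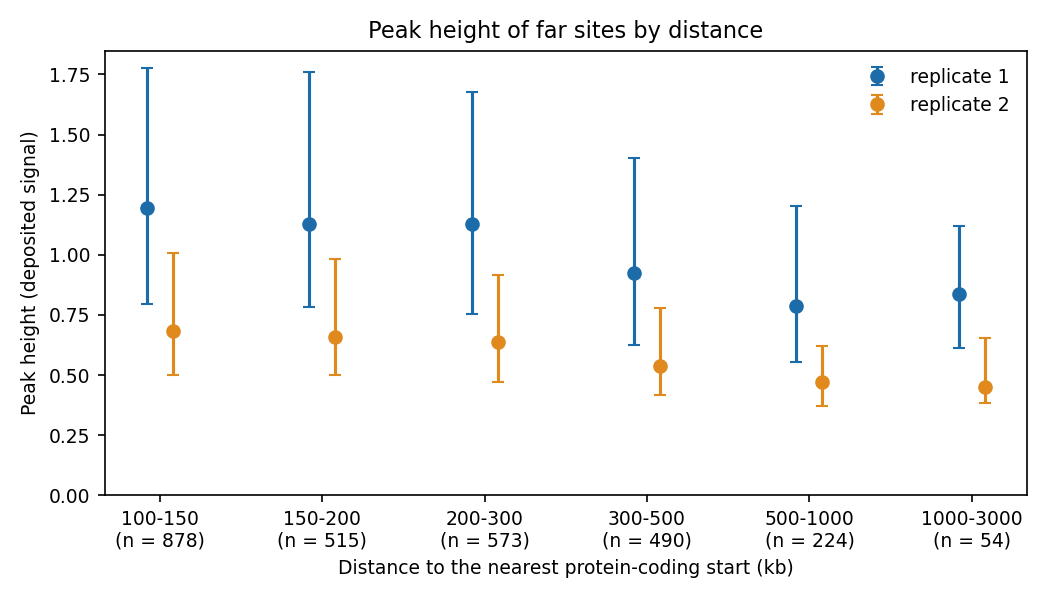
Median peak height (deposited signal) of far sites in 6 bins of distance to the nearest protein-coding start, with quartiles as bars. Medians were 1.20 and 0.682 in the nearest bin and 0.789 and 0.471 at 500 to 1000 kb, in replicates 1 and 2.

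The 10 highest far sites by mean log2 height were of different kinds. The highest, at chr3:5860361-5860492, had a height of 21.9 in replicate 1 and 18.7 in replicate 2, but its median 31-base word occurs at 7 places in mm10. The second, the CTCF site printed above from chromosome 8, had 18.7 and 9.92, and its median word occurs at 3 places, 151 bp from the start of the pseudogene Gm21769. The third, at chr1:102628161-102628360, had 11.3 and 8.83 with 2 copies. Of all 31-base words of these 3 sites, 100%, 73.3% and 50.8% occur more than once. Reads that match several copies cannot be assigned to 1 place, and how the authors treated them is not given in the sources used here.

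By the median word the other 7 were unique, though 16.7% of the words of the sixth and 23.3% of those of the seventh occur more than once. Zfat, a zinc finger gene, lay 105 kb from the fourth, which had 13.8 and 5.15 and lay 195 bp from the start of the long intergenic RNA Gm20732. At the Zswim6 start the fifth had 13.1 and 5.21, and the eighth, 428 bp from the start of the noncoding A230028O05Rik between Lpp and Tprg, had 10.6 and 5.26. The tenth, with 9.08 and 4.46, lay 72 bp from the start of the long intergenic RNA Gm26901. Thus 5 of the 10 highest sites lay within 1 kb of a noncoding start in GENCODE M21, against 146 of all 2734.

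Among the remaining 3, the sixth site, the AP-1 site printed above, was higher in replicate 2: its height was 6.85 in replicate 1 and 9.97 in replicate 2. The seventh, the TEAD site printed above from chromosome 1, stood 789 kb from Ddx18 with nearly equal heights of 7.83 and 7.77. The ninth, at chr3:21936061-21936280, had 9.71 and 5.56 and lay 140.5 kb from Tbl1xr1, a transcriptional co-regulator. At the other end of the same gap, 1569 kb from the site, was Agtr1b, an angiotensin II receptor gene.

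The third highest site was also the third farthest, 2140.3 kb from Cdh20, a cadherin gene, and its longest footprints were 55 bp in replicate 1 and 56 bp in replicate 2. The fifth farthest was the CTCF site printed above from chromosome 14, 1962 kb from the protocadherin gene Pcdh20, with heights of 1.12 and 0.800. The other 3 of the 5 farthest lay in 1 gap between Celf4 and Pik3c3, at 2083 to 2206 kb, with heights of 0.689 to 1.54 in replicate 1 and 0.434 to 0.892 in replicate 2.

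Just inside the limit, the 3 nearest members lay at 100.02, 100.03 and 100.1 kb from Ralgapa2, Irx4 and Chic2, with heights of 1.29, 2.80 and 4.57 in replicate 1 and 1.31, 2.23 and 2.64 in replicate 2. Just outside it, 3 peaks at 99.9, 99.7 and 99.7 kb from Ankrd55, Sesn3 and Slc25a26 had 3.10, 0.381 and 0.648 in replicate 1 and 1.38, 0.533 and 0.576 in replicate 2.

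Most far sites carried footprints. A footprint lay in each replicate at 2540 far sites, 92.9% (exact 95% interval 91.9 to 93.8%), which is near the 92% of all shared peaks and below the 95.6% of nearer intergenic peaks. Footprints of both replicates overlapped at 79.99% of far sites, against 87.5% of nearer intergenic peaks, and 28 far sites (1.02%) had no footprint in either replicate. The share with overlapping footprints was 58.0% in the lowest of 4 equal bins of far sites by height and 96.1% in the highest. Since the call depends on the cuts available, the lower height of far sites moves with these shares, and its part in them was not tested.

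The far site with the most footprints was that at Zswim6, with 18 in replicate 1 and 11 in replicate 2. The second lay 119 kb from Klf4, a zinc finger transcription factor gene, at chr4:55651041-55651760, with 13 and 7 footprints and heights of 3.69 and 1.92. The third, 142 kb from Irf2bp2, had 15 and 5. The fourth was the site at A230028O05Rik, with 10 and 9. The fifth, 100.4 kb from Hey1, a target of Notch signalling, had 9 and 10 and heights of 1.297 and 1.277.

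Far sites were less rich in G and C than the peaks nearer to genes. GC content in the 150 bp around the midpoint had a median of 52.0% at far sites, 54.0% at nearer intergenic peaks and 66.0% within 1 kb of a coding start. A GC content of 50% or more was found at 64.8% of far sites (63.0 to 66.6%), against 75.6% of nearer intergenic peaks (74.8 to 76.5%) and 83.7% of all shared peaks. In windows of 500 bp the shares were lower, at 32.7% of far sites and 51.8% of nearer intergenic peaks. At least 5 CpG dinucleotides were found at 19.8% of far sites, 30.0% of nearer intergenic peaks and 50.5% of all shared peaks. Shared peaks inside gene bodies over 100 kb from a coding start were close to far sites. Their median GC content was also 52.0%, with 67.8% at 50% or more and 18.5% with at least 5 CpG dinucleotides. Repeats masked in the reference covered at least 50% of the window at 2.71% of far sites and 2.64% of nearer intergenic peaks.

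The motifs of far sites differed from those of the nearer intergenic peaks. The letters TTGGCA of the NFI family, transcription factors active in many differentiating tissues, was the most frequent of the 16 and was found at 572 far sites, 20.9% (19.4 to 22.5%), against 14.7% of nearer intergenic peaks (14.0 to 15.4%) and 12.5% of all shared peaks. CTCF was less frequent at far sites: 267 held a match, 9.77% (8.68 to 10.9%), against 15.2% (14.5 to 15.9%) of nearer intergenic peaks and 8.31% of all shared peaks. With the longer peak list the CTCF shares were 6.04% and 10.7%. The letters GGGCGG, bound by SP1 and KLF proteins, were found at 6.44%, 11.7% and 24.998% of the same 3 groups, and RUNX (TGTGGT) at 9.22%, 11.1% and 8.33%. The 1529 shared peaks over 100 kb from a coding start inside gene bodies were near the far sites in these shares, with NFI at 21.1% (19.1 to 23.3%), CTCF at 8.50% (7.15 to 10.0%) and GGGCGG at 7.33% (6.07 to 8.75%). All searches covered both strands of the 150 bp window, and a match is no evidence that a protein was bound.

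Motifs of factors with roles in the adrenal gland were counted in the same way. SF-1 (CAAGGTCA), the factor encoded by Nr5a1 that directs steroid synthesis genes, was found at 61 far sites, 2.23% (1.71 to 2.86%), and at 2.16% of nearer intergenic peaks. The letters AGATAA of GATA factors were found at 5.41% (4.59 to 6.33%) and 4.24% (3.87 to 4.65%). AP-1 (TGANTCA), bound by FOS and JUN proteins that respond to stimuli, was found at 226 far sites, 8.27% (7.26 to 9.36%), and at 7.64% (7.14 to 8.16%). The E-box CAGATG, bound by HAND and TCF factors, was found at 14.6% of far sites (13.3 to 15.97%) and 12.6% of nearer intergenic peaks (11.9 to 13.2%), and TEAD (GGAATG) at 9.47% and 8.63%.

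The remaining 7 motifs were each found at under 2% of far sites. SOX (ACAATGG) was found at 1.98% of them, 1.59% of nearer intergenic peaks and 1.22% of all shared peaks. In the same 3 groups the homeodomain letters TAATTA were found at 1.61%, 1.28% and 0.983%, and ETS (CCGGAAG) at 0.988%, 1.86% and 4.24%. MEF2 was found at 0.805%, 0.744% and 0.631%. CRE (TGACGTCA) had 6 far sites, or 0.219%, against 0.420% and 0.917%. The glucocorticoid receptor had 5, or 0.183%, against 0.210% and 0.135%. C/EBP (TTGCGCAA) had 1, or 0.0366%, against 0.143% and 0.141%. A CRE match cannot also be read as an AP-1 match, but motifs may overlap within a window, and each was counted on its own.

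**Figure D3:**
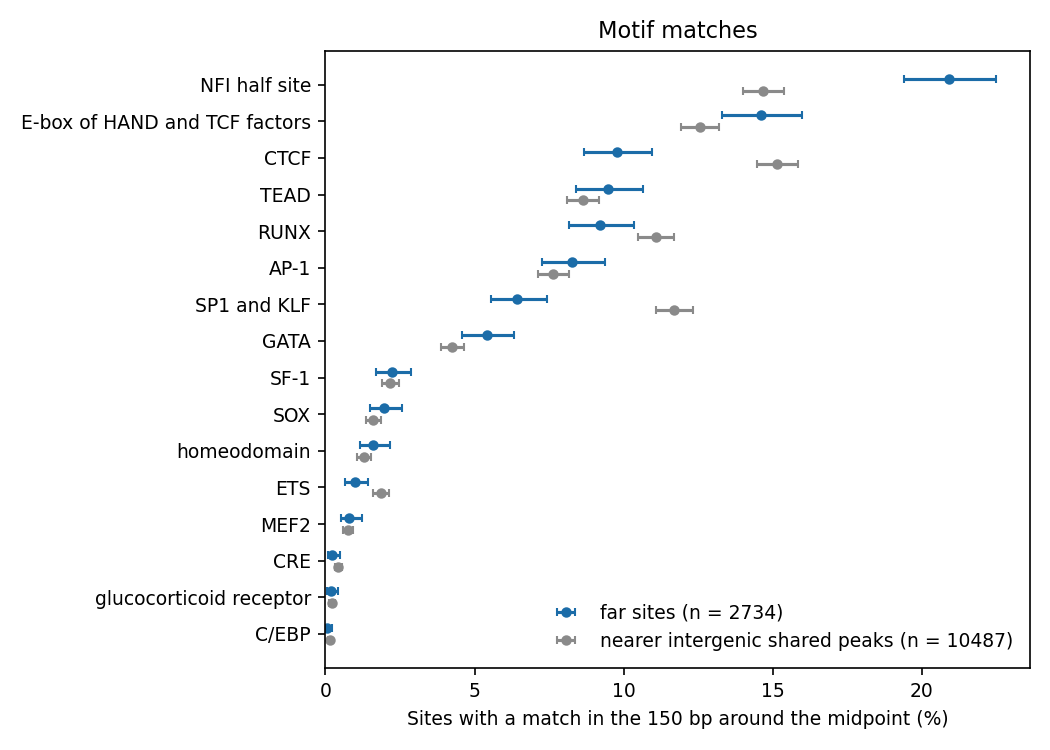
Share of far sites and of nearer intergenic shared peaks with a match to each of 16 motifs in the 150 bp around the midpoint; bars are exact binomial 95% intervals. NFI stood at 20.9% of far sites against 14.7%, and CTCF at 9.77% against 15.2%.

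CTCF matches were nearly always inside footprints. Of 267 matches at far sites, the centres of 246 (92.1%) lay in a footprint of replicate 1, of 251 (94.0%) in one of replicate 2, and of 238 (89.1%, 84.8 to 92.6%) in both. For the NFI motif the shares were 47.9%, 33.3% and 24.0% of 657 matches. For SF-1 they were 34.4%, 16.4% and 11.5% of 61, for AP-1 21.4%, 19.3% and 6.58% of 243, and for GATA 8.39%, 12.3% and 2.58% of 155. The bases of all far windows that lay in footprints were 20.6% in replicate 1 and 18.3% in replicate 2. The CTCF and NFI shares were above these in both replicates, and the AP-1 shares were near them. The SF-1 share was above in replicate 1 and below in replicate 2, where its interval (8.15 to 28.1%) included the share of bases. The GATA shares were below, with an interval in replicate 2 (7.54 to 18.5%) that included the share of bases.

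Far sites with a CTCF match stood apart in other ways. Their heights had medians of 1.16 in replicate 1 and 0.787 in replicate 2, against 1.07 and 0.601 at the 2467 far sites without one. Their longest footprint had a median of 27 and 28 bp, against 19 and 14 bp. Their GC content had a median of 49.3%, against 52.0%, and 1 of them lay in a window with at least 50% masked repeats, against 73 of those without. The share with CTCF was 7.02% in the lowest of the 4 bins by height and 14.6% in the highest. Matches lay on the plus strand 133 times and on the minus strand 134 times.

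Far sites were higher in replicate 1, as shared peaks were in general. On the log2 scale, the ratio of replicate 1 over replicate 2 had a median of 0.71 at far sites and 0.68 at nearer intergenic peaks. The difference between these classes was 0.0280, and 0.16 with peak lists of equal length. A ratio of more than 2-fold was found at 819 far sites, 30.0%, beside 29.2% of all shared peaks. In 210 far sites (7.68%) the height was lower in replicate 1, and in 3 of them it was lower by more than 2-fold (0.110%), beside 0.0393% of all shared peaks. The heights of both replicates ranked less alike at far sites (Spearman 0.778) than at nearer intergenic peaks (0.855), with far sites also the lower of the 2 classes. The 2 replicates are 1 pair of libraries, so none of these differences could be tested over samples. The size of a ratio rests on the authors' scaling of each library, while a difference of log2 ratios between groups of sites does not change with a common factor.

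The difference between the replicates was unequal across motifs. At the 226 far sites with AP-1, the median height was 1.21 in replicate 1 (quartiles 0.864 and 1.94) and 0.552 in replicate 2 (0.446 and 0.779). The median log2 ratio was 1.12, and 134 of the sites, 59.3% (52.6 to 65.8%), were more than 2-fold higher in replicate 1. At the 267 far sites with CTCF the median log2 ratio was 0.47, and 26, or 9.74% (6.46 to 13.9%), were more than 2-fold higher. At the 2248 far sites with neither motif the median was 0.72 and the share 29.4% (27.5 to 31.3%).

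The same order held at nearer intergenic peaks, with 55.4% for AP-1, 9.50% for CTCF and 26.04% for neither. Since height and GC content also moved with the ratio, the shares were taken within 4 bins of each, equal in size for height and, because of tied values, unequal for GC content. In the highest bin of far sites by height, 78.8% of 52 AP-1 sites, 7 of 100 CTCF sites and 40.7% of 535 others were more than 2-fold higher in replicate 1. In the lowest bin the shares were 23.9%, 8.33% and 9.63%. Within the 4 bins by GC content, the shares were 50% to 61.5% for AP-1, 5.88 to 13.6% for CTCF and 22.3 to 32.5% for neither. NFI, GATA and SF-1 far sites had median log2 ratios of 0.88, 0.88 and 0.87. At nearer intergenic peaks these medians were 0.88, 0.69 and 0.98, with GATA near the 0.68 of all such peaks. The 7 far sites with both AP-1 and CTCF had a median of 0.52.

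**Figure D4:**
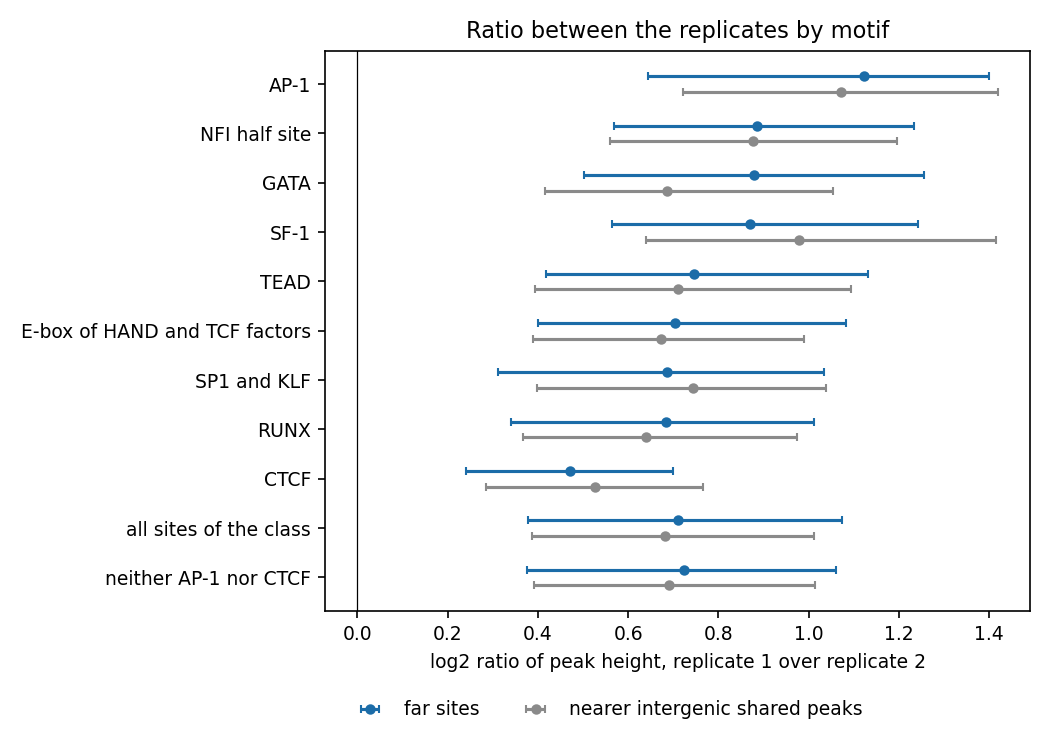
Log2 ratios of peak height (medians), replicate 1 over replicate 2, of far sites and nearer intergenic shared peaks that hold each motif; bars are quartiles over sites. Far sites with AP-1 stood at 1.12 and those with CTCF at 0.47, against 0.71 for all far sites.

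Single sites with the largest ratios carried different motifs. The largest ratio, 2.70 on the log2 scale, was found at chr17:54158861-54159040, 120.3 kb from Slc5a7, a choline transporter gene, with heights of 1.77 in replicate 1 and 0.273 in replicate 2 and an AP-1 match. The second, 204.5 kb from Cntn3, had 2.19 and 0.353, and its median 31-base word occurs at 24 places. The third, between Akr1e1 and the zinc finger gene Klf6, had 1.62 and 0.279 and an NFI match. The smallest ratio, -2.12, was found 609.9 kb from Map3k7, with 0.334 and 1.45. The next 2, beside Rab10 and between Cenpw and Trmt11, had 0.521 and 1.83 and 0.341 and 0.849, and the median 31-base word of the site between Cenpw and Trmt11 occurs at 8 places. None of these last 3 held any of the 16 motifs.

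Many peaks of replicate 1 that met the distance rule, called far peaks here, were not shared. Replicate 1 had 8139 far peaks, of which 34.2% (33.2 to 35.3%) overlapped a peak of replicate 2. The share was 47.8% for its nearer intergenic peaks and 51.9% for all its peaks. Replicate 2 had 3013 far peaks, of which 92.0% (90.9 to 92.9%) overlapped a peak of replicate 1. This was near the 92.5% of its nearer intergenic peaks and the 91.5% of all its peaks. The 5353 far peaks found only in replicate 1 were low, with a median height of 0.488, and 46.7% of them held a base with an FDR (adjusted p-value) under 0.05 in replicate 2. The 242 found only in replicate 2 had a median of 0.359, and 67.8% held such a base in replicate 1.

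By the median 31-base word, copies elsewhere in the genome touched few far sites. This word occurs more than once in mm10 for 64 far sites (2.34%, 1.81 to 2.98%), against 1.42% (1.20 to 1.67%) of nearer intergenic peaks. At least 1 repeated word was more common, at 203 of 2734 far sites and 851 of 10487 nearer intergenic peaks, and by this count far sites were not the more repeated class. Those 64 had median heights of 0.648 in replicate 1 and 0.561 in replicate 2, against 1.09 and 0.620 for unique far sites. No word of a far site matched the mitochondrial genome.

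Most far sites had no other far site close by. There were 2040 (74.6%) without another far site within 10 kb, and the other 694 formed 305 groups, 245 of them pairs. Neighbouring shared peaks of other classes were not counted, and the same share was not computed for those classes. The largest group held 7 sites within 10.6 kb at chr6:51168141-51178780, 254 kb from Nfe2l3, a stress-response transcription factor gene. Its heights ran from 0.588 to 4.47 in replicate 1 and from 0.725 to 1.92 in replicate 2, and 1 site was higher in replicate 2.

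Groups of 5 lay nearest to Meis1, Zfp36l1 and Med13l. The group 134 kb from Meis1, a homeobox transcription factor gene, spanned 4.04 kb at chr11:18874261-18878301 and contained far sites 1312 and 1337 bp wide, against a median width of 200 bp. Its highest site had 4.12 and 2.63. The group 124 kb from Med13l, in the gap that ends at Tbx3, a T-box transcription factor gene, had median heights of 1.60 and 0.831. The group 205 kb from Zfp36l1, an mRNA decay factor gene, had medians of 1.85 and 0.868. A group of 4 lay between Camk1g and Plxna2, a semaphorin receptor gene, with medians of 1.13 and 0.576.

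The far sites fell into 943 gaps between neighbouring coding starts. In 356 gaps there was 1 far site, while 160 gaps with at least 5 held 1195 sites, or 43.7%. The gap from Mki67, which encodes the proliferation marker Ki-67, to the DNA repair gene Mgmt held the most, 19 sites in 1178 kb. None of these 19 had a CTCF match and all had footprints in each replicate. Their heights ran from 0.421 to 2.86 in replicate 1 and from 0.353 to 2.25 in replicate 2, and the highest lay 773 kb from the Mki67 start.

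The next 9 gaps held 14 to 18 far sites. Kif2a to Smim15 and Slc4a3 to Epha4, an ephrin receptor gene, had 18 each, Npvf to Nfe2l3 and Med13l to Tbx3 17 each, and Foxo1 to Cog6 16. Zfp608 to Gramd3, Dhx35 to Gm826 and Ywhaq to Gm10330 had 15 each, and Camk1g to Plxna2 14. Per Mb of eligible sequence the gap from Foxo1, a forkhead factor of insulin signalling, to Cog6 was the densest of the 10 with 30.4 sites, and Ywhaq to Gm10330 the sparsest with 6.94. Together the 10 gaps held 164 far sites, 6.00%.

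The counts of 3 of these gaps depended on the annotation or included repeated sequence. Of the 15 sites from Ywhaq to Gm10330, 11 had a median word at 2 to 9 places, 4 were unique, and 5 lay within 100 kb of a RefSeq protein-coding start, 2 of them within 1 kb. RefSeq placed a protein-coding start within 100 kb of 6 of the 17 sites from Npvf to Nfe2l3, which leaves 11, and of 4 of the 18 sites from Kif2a to Smim15, all within 10 kb, which leaves 14. In the other 7 gaps no site had copies or such a start.

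Of 21911 protein-coding genes, 1693 flanked a far site, 7.73%. A gene can flank one only where eligible sequence adjoins it, which held for 3028 genes, and 55.9% of those (54.1 to 57.7%) did. In the developmental transcription factor list, 39 of 56 genes flanked far sites, and 39 of the 48 that adjoin eligible sequence (81.3%, 67.4 to 91.1%). Meis1 flanked 18 far sites, Tbx3 17, and Klf4 and Zeb2 12 each. In the cell adhesion and axon guidance list, 32 of 46 genes flanked far sites and 32 of the 42 adjoining genes (76.2%, 60.5 to 87.9%). Cdh11 flanked 14, Flrt2 12, Cdh4 11 and Pcdh17 10.

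Both lists differed in the amount of eligible sequence beside them. Counted as site and gene pairs per Mb of that sequence, developmental transcription factors had 6.63 far sites per Mb and adhesion and guidance genes 1.23, against 3.65 for all genes. The value for all genes includes the Y chromosome, although the samples were female. The densest list in the plot, the immediate early genes with 16.1 per Mb, rested on 4 genes and 12 pairs, and the cortex signalling and endothelial lists had 8.36 and 8.95. The median eligible sequence per adjoining gene was 511 kb for the first list, 2465 kb for the second and 211 kb for all genes. The far sites beside adhesion and guidance genes also had lower median heights, 0.795 in replicate 1 and 0.483 in replicate 2, than those beside developmental factors, 1.12 and 0.632.

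**Figure D5:**
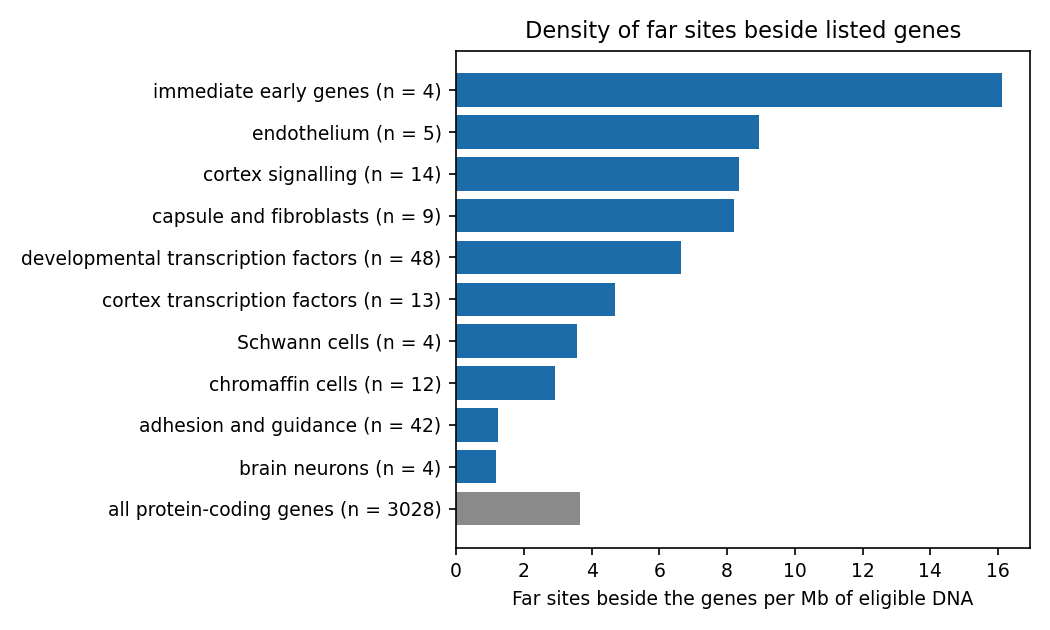
Far sites beside the genes of each list, counted as site and gene pairs per Mb of eligible sequence next to those genes, for lists with at least 4 such genes (n) and for all protein-coding genes (grey). Developmental transcription factors had 6.63 per Mb and adhesion and guidance genes 1.23, against 3.65 for all genes.

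Of 20 transcription factors of the adrenal cortex, 13 adjoin eligible sequence and 12 of these flanked far sites (92.3%, 63.97 to 99.8%), beside the 55.9% of all adjoining genes. The 13 also had more eligible sequence beside them, a median of 488 kb against 211 kb for all adjoining genes. Per Mb of that sequence they had 4.68 site and gene pairs, against 3.65 for all genes. Nr2f2 had 10, Sall1 7 and Gata6 6, and the highest beside Nr2f2 stood at 2.14 in replicate 1 and 1.37 in replicate 2. Of 18 steroid synthesis genes, 2 did, and these were the only 2 with eligible sequence beside them. Mc2r, the receptor of the pituitary hormone ACTH, flanked 6 far sites at 162 to 768 kb, with heights of 0.348 to 2.09 in replicate 1 and 0.328 to 1.64 in replicate 2. Stard4, a cholesterol transporter gene, flanked 2. The higher had 1.60 in replicate 1 and 0.688 in replicate 2, and the other had 1.40 and 0.750.

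Of 28 signalling genes of the cortex, 8 flanked far sites, or 57.1% of the 14 that adjoin eligible sequence, near the 55.9% of all adjoining genes. Gli2, an effector of Hedgehog signalling, flanked 13 at 110 to 249 kb, with heights up to 3.07 in replicate 1 and 1.53 in replicate 2. Agtr1b flanked 12. Inhba, which encodes an activin subunit, flanked 4 and Gli3 3, and since these genes neighbour each other they share sites, among them 1 with 2.75 in replicate 1 and 2.08 in replicate 2.

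Of 28 chromaffin cell genes, 8 flanked far sites, or 66.7% of the 12 that adjoin eligible sequence (34.9 to 90.1%), an interval that includes the 55.9% of all. There were 4 each beside the transcription factor genes Gata3 and Isl1 and 3 each beside Chrna7, an acetylcholine receptor gene, and Eya1. The highest of these, beside Isl1, had 3.88 and 1.64. Of 20 capsule and fibroblast genes 5 did, out of 9 that adjoin eligible sequence (55.6%). Dcn, which encodes the matrix protein decorin, flanked 9, the highest with 7.37 and 3.61. Tbx18 flanked 6, Pdgfra 3 and Col3a1 1. Of 16 endothelial genes 4 did, out of 5 that adjoin eligible sequence: Cdh5, the cadherin of vessel walls, flanked 11, Ets1 7, the VEGF receptor gene Kdr 4 and Sox17 2. Cdh5 had no shared peak within 1 kb of a start. Its highest far site, with 1.90 in replicate 1 and 1.10 in replicate 2, was also the highest beside Cdh11 of the adhesion and guidance list.

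The other lists had few genes with eligible sequence beside them: 4 each of the immediate early, Schwann cell and brain neuron lists, 2 each of the adipocyte and blood cell lists, and 1 each of the liver and kidney lists. Of 20 immediate early genes, Gadd45g flanked 8 far sites and Jun 4. Of 14 adipocyte genes, Ppargc1a flanked 7 and Ebf2 3, and of 14 Schwann cell genes, Sox2 7 and Foxd3 1. Among genes of tissues other than the adrenal gland, 1 of 11 liver genes (Apob), 2 of 16 blood cell genes (Ptprc and Pax5), 2 of 14 brain neuron genes and 0 of 15 kidney genes flanked far sites. None of 16 glucocorticoid response genes did, of which 2 adjoin eligible sequence. A flanking gene is the nearest by position on its side, and no value here links a site to the activity of a gene.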

How the data were processed

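The deposited files hold, for each of the 2 samples, peak lists, footprints and FDR values on mm10. The deposited peak height is a signal, given once per peak on a scale that was not stated; the authors' file listing also names a read-depth normalised signal from the same alignments. Every deposited footprint carries a p-value of 0.01, and the FDR lists hold adjusted p-values under 0.05. The aligner, the callers and the treatment of multiply matching reads were not given in the sources used here. CAST/EiJ reads placed on mm10 can lose signal where the strains differ.

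Peaks of the shorter list of each replicate that overlapped were merged, keeping the highest height per replicate, with Python 3.11.15, pandas 2.3.3 and numpy 2.4.6. Genes came from GENCODE M21, sequence and a second annotation from RefSeq GRCm38. The 16 motifs were matched to their consensus with no mismatch, on both strands. Flanking genes are the nearest protein-coding starts on each side. Depth enters only as peak and footprint counts, and exact intervals cover counting error only. The steps recovered planted overlaps, classes, footprints and motifs on simulated data.

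Named sites were the 10 highest, 5 farthest, 5 with the most footprints, 3 with the largest and 3 with the smallest ratio, 3 on each side of the 100 kb limit and 5 densest groups. Named genes flank these, border the 10 richest gaps, or lead their list with up to 4 members, some of which are not reported here. Members and lists were chosen with earlier results of these data known. With 1 group, no test between samples was made.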

Additional observations from a re-analysis of the deposited data

How the results depend on the processing

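The choices varied were the peak list, the overlap, the list length, the distance limit, the gene bodies, the window and each replicate alone. The longer list gave 5708 far sites (7.36% of shared peaks), a height ratio to nearer intergenic peaks of 0.633, a log2 ratio difference of 0.00491 (main value 0.0280), footprints in each replicate at 73.8%, a GC content of 50% or more at 60.2% and CTCF at 6.04%. Lists of equal length gave 1639 (4.11%), 0.743, 0.16, 97.3%, GC 68.6% and 75% of AP-1 sites over 2-fold higher in replicate 1, against 34.6% of all shared peaks there. A limit of 50 kb gave 4763 (9.86%), 0.676 and GC 68.4%, and one of 200 kb gave 1341 (2.78%), 0.610 and GC 60.2%. With bodies of protein-coding genes only, the share was 7.09% and the height ratio 0.667. Footprints wholly inside the site that overlapped between replicates were found at 79.8%. GC was 50% or more at 59.5% of whole sites and at 32.7% of 500 bp windows, against 51.8% of nearer intergenic peaks in such windows. Leaving out 1 replicate gave 3013 to 8139 far sites, shares of 5.46 to 8.24%, height ratios of 0.628 to 0.642, GC shares of 48.9 to 67.3% and CTCF shares of 4.55 to 9.09%. The 8139 sites and the CTCF share of 4.55% came from replicate 1 alone. The cause of these shifts was not tested. In each of these settings far sites were lower, and less often GC-rich or with CTCF, than nearer intergenic peaks where both were computed. Of 79 recomputed values, 46 lay within the interval or 1.5-fold range of the main value, and 33 did not. Limiting the sites to unique sequence or adding the RefSeq distance, both chosen after seeing the data, moved none beyond that range. No paired analysis was possible because there is 1 group.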
